A study of Mus musculus with 12 samples.

Results

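The aminoacyl-tRNA synthetases examined here were the 10 cytoplasmic enzymes Mars, Wars, Nars, Gars, Aars, Sars, Iars, Yars, Eprs and Lars, chosen by name as synthetases under the control of ATF4. All 10 had an entry among the 24552 gene symbols of the deposited count table, but 2 of them, Mars and Yars, had enough counts to be tested among 2356 genes. Polyadenylated RNA was sequenced from macrophages grown for 6 days out of mouse bone marrow with the growth factor M-CSF (10 ng/ml). There were 4 groups of 3 biological replicates. Vehicle M0 and vehicle M1 cells had a pretreatment of 1 h with DMSO, and ISRIB M0 and ISRIB M1 cells had 1 h with 50 nM ISRIB. M1 cells then had LPS (10 ng/ml) and interferon gamma (25 ng/ml) for 16 h, whereas what M0 cells received in that time is not given in the labels. The labels give no strain, age or genotype for the donor mice and do not say whether replicates came from separate animals, so the p-values measure the spread between these 12 samples.

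Each synthetase joins an amino acid to its matching tRNA, and the charged tRNA then delivers that amino acid to the ribosome. The integrated stress response slows general protein synthesis through phosphorylation of the initiation factor eIF2, while translation of the transcription factor ATF4 rises. ATF4 pairs with C/EBP proteins on a composite DNA element and drives genes of amino acid supply, among them amino acid transporters, biosynthetic enzymes and many cytoplasmic synthetases. ISRIB acts on eIF2B, the exchange factor of eIF2, and blunts the effect of eIF2 phosphorylation. Wars, the tryptophanyl-tRNA synthetase, is in addition a classical interferon gamma target, and this cytokine was part of the M1 stimulus. The table reports RNA levels, so neither ATF4 protein nor tRNA charging was measured.

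The core of the C/EBP-ATF composite element was searched as TGATGNAA on both strands of RefSeq promoter windows of build GRCm38.p6, each running from 250 bases before to 50 bases after the gene's start. Of the 10 synthetases, 7 had a window, and the core was found in 4 of these 7 (57.1%), in Gars, Aars, Iars and Yars. It was not found in the windows of Mars, Sars and Eprs. Among 32 other ATF4 target genes with a window, 9 (28.1%) had it. In both lists a gene was counted if any of its windows held the core. Among all 32851 windows of the same length, counted per window and not per gene, 1304 (3.97%) held it. For each of the 4 synthetases with the core, the 30 bases around 1 match are shown. They show which letters matched and how the genes differ in them. The core (or its complement, TTNCATCA) is in capitals, and each sequence is read on the strand of its gene.
Gars, chr6:55037960-55037989, plus strand, core at bases -30 to -23 from the start: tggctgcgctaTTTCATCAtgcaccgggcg
Aars, chr8:111033840-111033869, plus strand, core at bases 10 to 17: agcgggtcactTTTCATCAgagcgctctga
Iars, chr13:49682126-49682155, plus strand, core at bases 8 to 15: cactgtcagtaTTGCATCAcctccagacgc
Yars, chr4:129189895-129189924, plus strand, core at bases 4 to 11: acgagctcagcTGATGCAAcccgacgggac
In Gars, Aars and Iars the core shown lay on the strand opposite to the gene, and in Yars on the gene's own strand. These matches describe the letters of the windows and say nothing about binding of ATF4 in these cells.

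Total counts ranged from 439976 to 514037 per library, and 4791 to 5665 symbols had at least 1 count in a library. Counts were scaled with TMM to counts per 1000000 (CPM), and 1 count was worth 1.79 to 2.57 CPM. For a gene at 0 the limit was set at 3 counts in a library, or 5.37 to 7.71 CPM (the floor). Of all values above 0, 61.3% were even numbers, so single counts may not stand for single RNA fragments, and floors cover counting error only. The kit was strand-specific, but the strand setting of the counting is not given in the sources used here. Of the counts in the 24030 symbols matched to a gene annotation, 92.3% lay in genes with exons overlapping another gene on the opposite strand. Whether counts under a symbol are reads of that gene or of RNA from the opposite strand was not tested, so every level and difference below is that of the counts listed under the symbol. The labelled cell type was checked on marker genes. All 10 macrophage markers had counts in M0, with 1758 to 2703 counts per library together, most of them in Cd163. In M1, 9 of 10 had counts (113 to 272 together), and Mrc1 was at 0. The markers did not move together. Mean counts rose from M0 to M1 for Adgre1 (12.2 to 39.3), Itgam (10 to 36), Fcgr1 (2 to 18.2), Cd14 (4.5 to 19.7) and Mertk (2.5 to 3). They fell for Cd163 (1703.3 to 5.67), Lyz2 (247.2 to 59.7), Csf1r (50.5 to 17.5), Cd68 (13.3 to 6.5) and Mrc1 (2.5 to 0). Markers of M1-like cells had 0 to 2 counts together in M0 and 118 to 254 in M1, where all 7 were detected. Among markers of other cell types, T cell and fibroblast genes were at 0, and the lists of neutrophil, B cell and mast cell genes reached at most 4 counts in a library. Alas2 of the erythroid list reached 16 counts. Of the dendritic cell list, Flt3 and Zbtb46 were at 0. Clec9a led with 10 to 47 counts in M0 and was at 0 in M1. Xcr1 had 325 to 434 counts in M1 and a mean of 13.2 in M0. Ccr7 was at 0 in M0 and reached 10 counts in M1. The part of these genes in the results was not tested.

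Together the 10 synthetases took 30 to 154 counts per library, 0.00653% to 0.0330% of the total. Mars alone held 51.1% to 96.5% of them. Over all 12 libraries Mars had 890 counts, Yars 83, Sars 43, Nars 31, Aars 28, Lars 14, Wars 13, Eprs 8 and Iars 4. Gars, the glycyl-tRNA synthetase, had 0 counts in every library. The 8 synthetases other than Mars and Yars did not pass the filter on low counts. Levels were compared between genes as mean CPM per kilobase of exon. On that scale the order was Mars (49.3), Yars (2.29), Sars (1.5), Nars (1.26), Wars (0.759), Aars (0.592), Lars (0.531), Iars (0.157), Eprs (0.0880) and Gars (0). The lowest Mars library (12.2 CPM per kb) was above the highest Yars library (6.43). All neighbours from Yars downward had libraries at 0 and overlapped, so that their order is not resolved at this depth.

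Mars, the methionyl-tRNA synthetase and a member of the multi-synthetase complex, was higher in M1 than in M0 cells. Its gene (ENSMUSG00000040354.14) lies on the minus strand of GRCm38 at chr10:127296221-127311786 with 20 exons after merging. The vehicle M0 libraries had 61, 54 and 24 Mars counts, and vehicle M1 had 107, 98 and 133. With ISRIB they were 20, 38 and 47 in M0 and 109, 109 and 90 in M1. Every M1 library lay above every M0 library, with or without ISRIB, and the ISRIB and vehicle libraries overlapped within each state.

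Mars averaged 86.1 ± 33.5 CPM in vehicle M0 and 279.8 ± 35.4 CPM in vehicle M1 (SD, n = 3 each). With ISRIB the averages were 66.3 ± 23.3 CPM in M0 and 242.6 ± 30.9 CPM in M1 (SD, n = 3 each). Per kilobase of exon these levels were 25.2, 81.8, 19.4 and 70.9 CPM in the same order. From M0 to M1 in vehicle, Mars rose by 1.69 ± 0.29 (SE) on the log2 scale, with a 95% interval of 1.10 to 2.29 and an adjusted p of 2.78e-05 (edgeR quasi-likelihood test, Benjamini-Hochberg over 2356 genes). In ISRIB it rose by 1.86 ± 0.30 (SE, 95% interval 1.25 to 2.47), with an adjusted p of 1.13e-05 by the same test. A gene was called when its adjusted p was under 0.05. Of the 2 tested synthetases, 1 was called in vehicle, where 44.8% of all tested genes were called (24.3% higher and 20.5% lower in M1). In ISRIB both were called, Mars higher and Yars lower, where again 44.8% of tested genes were called (23.9% higher and 20.9% lower). Groups without overlap, as for Mars, were found for 52.7% of tested genes in vehicle and 55.2% in ISRIB. Scaled by total counts instead of TMM, 460 genes were called higher and 658 lower in vehicle (572 and 483 with TMM), and 437 and 673 in ISRIB (563 and 492), while Mars was still called higher in both. In bulk RNA, a change in the share of a cell type and a change of RNA per cell cannot be told apart.

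**Figure D1:**
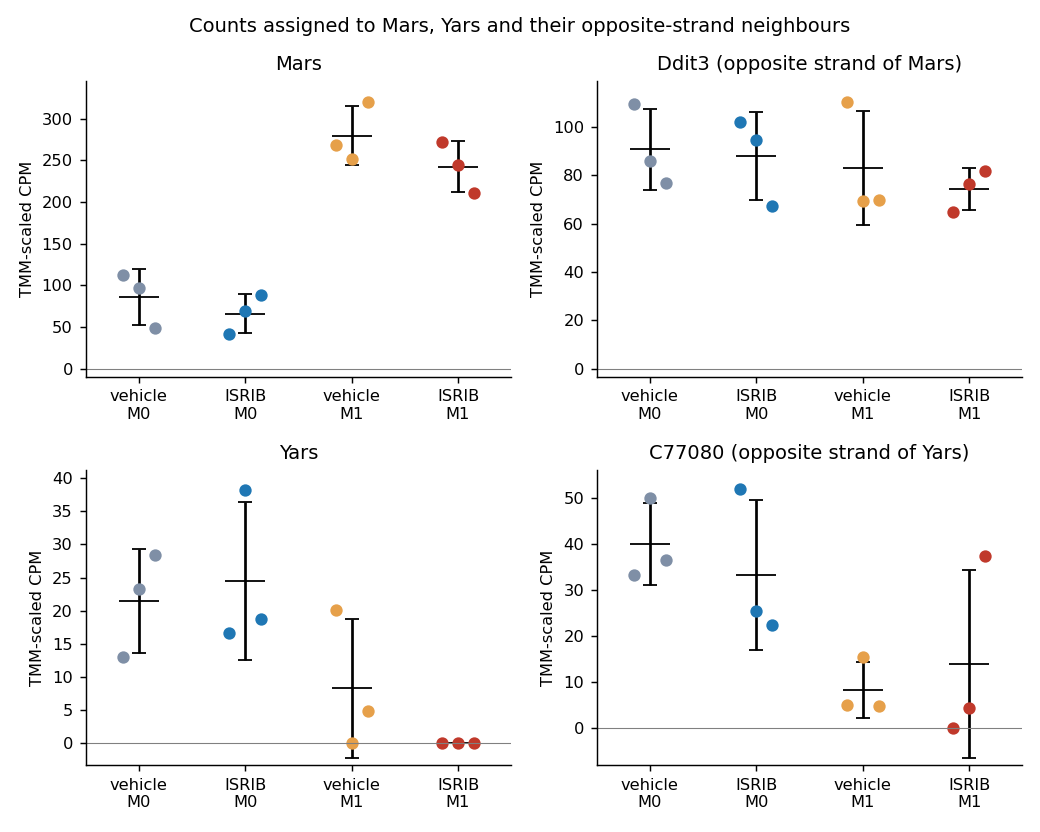
TMM-scaled CPM (y axis) of Mars, Ddit3, Yars and C77080 in the 4 groups (x axis), with 1 point per library and bars for the mean and SD of 3 libraries. Mars lay at 66.3 and 86.1 CPM on average in M0 and at 242.6 and 279.8 CPM in M1 without overlap, Ddit3 overlapped in all groups, and Yars was at 0 in the 3 ISRIB M1 libraries.

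Mars shares sequence with a stress response gene. Its last exon overlaps that of Ddit3, which encodes the transcription factor CHOP and is itself induced by ATF4, by 68 bases at chr10:127296221-127296288, where the 3′ ends of both genes meet on opposite strands. If reads were counted on the strand opposite to the kit's, the counts under Mars would be reads from the strand of Ddit3, and those under Ddit3 reads from the strand of Mars. With the setting not known, the rise under the symbol Mars cannot be told apart from a rise of RNA on the Ddit3 strand. What share of the Mars counts came from the shared 68 bases was not tested. Ddit3 counts were 59, 48 and 38 in vehicle M0 and 44, 27 and 29 in vehicle M1. With ISRIB they were 49, 52 and 36 in M0 and 26, 34 and 35 in M1. Ddit3 overlapped between M0 and M1 in vehicle, at 90.7 ± 16.7 and 83.1 ± 23.5 CPM (SD, n = 3 each). Its log2 difference was -0.13 ± 0.33 (SE) in vehicle and -0.24 ± 0.33 (SE) in ISRIB, with adjusted p of 0.776 and 0.589 (edgeR quasi-likelihood test, Benjamini-Hochberg).

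The share of the pair's counts assigned to Mars was larger in every M1 library than in every M0 library. In vehicle, Mars took 50.8%, 52.9% and 38.7% of the counts of both genes in M0 and 70.9%, 78.4% and 82.1% in M1. In ISRIB the shares were 29%, 42.2% and 56.6% in M0 and 80.7%, 76.2% and 72.0% in M1. The mean share was 47.5% ± 7.68 against 77.1% ± 5.73 in vehicle and 42.6% ± 13.8 against 76.3% ± 4.37 in ISRIB (SD, n = 3 each). M0 and M1 did not overlap in either treatment. The two-sided exact permutation test gave p = 0.1 for each, the smallest that 3 against 3 can give, and 0.2 after Benjamini-Hochberg adjustment over 4 such tests. ISRIB against vehicle gave an exact permutation p of 0.8 in M1 and 0.7 in M0, both 0.8 after adjustment. As a ratio, Mars had 0.408 to 1.31 counts per Ddit3 count in M0 libraries and 2.43 to 4.59 in M1 libraries.

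**Figure D2:**
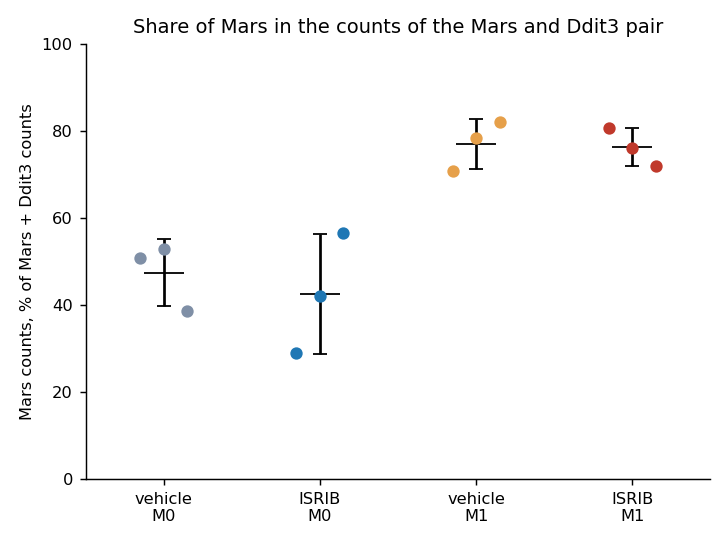
Counts assigned to Mars as a percent of the counts of Mars and Ddit3 together (y axis) in each group (x axis), with 1 point per library and bars for the mean and SD of 3 libraries. All 6 M1 libraries (70.9% to 82.1%) lie above all 6 M0 libraries (29% to 56.6%).

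Yars, the tyrosyl-tRNA synthetase, was lower in M1 than in M0 cells in ISRIB. The gene lies on the plus strand at chr4:129189760-129219607 with 15 merged exons. Yars counts were 7, 13 and 14 in vehicle M0 and 8, 0 and 2 in vehicle M1. In ISRIB M0 they were 8, 21 and 10, and in ISRIB M1 all 3 libraries were at 0. The vehicle groups overlapped through replicate 1 of vehicle M1, whereas the ISRIB groups did not overlap. Yars averaged 21.5 ± 7.84 CPM in vehicle M0, 8.28 ± 10.5 in vehicle M1 and 24.5 ± 11.9 in ISRIB M0 (SD, n = 3 each). In ISRIB it fell from M0 to M1 with an adjusted p of 0.0022 (edgeR quasi-likelihood test, Benjamini-Hochberg) and was at least 3.46-fold lower in M1, taking the floor of 3 counts per library for the group at 0. In vehicle the log2 difference was -1.35 ± 1.00 (SE, 95% interval -3.41 to 0.72), with an adjusted p of 0.288 by the same test. Without replicate 1 of vehicle M1 it was -2.99 (adjusted p 0.0861 by the same test). When only the groups compared entered the fit, Yars did not pass the low-count filter. With 73 counts in M0 and 10 in M1 libraries over both treatments, Yars passed that filter through M0, where it was high. Its call as lower in M1 thus rests on a gene admitted by its M0 counts. Without the filter, on 10978 genes, Yars had an adjusted p of 0.000641 in ISRIB (edgeR quasi-likelihood test, Benjamini-Hochberg).

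Yars also meets a neighbour tail to tail. Its last 30 bases, chr4:129219578-129219607, overlap the 3′ end of C77080, a protein-coding gene on the minus strand. C77080 had 18, 28 and 18 counts in vehicle M0 and 2, 6 and 2 in vehicle M1. With ISRIB it had 25, 14 and 12 counts in M0 and 0, 2 and 16 in M1. It was lower in M1 in vehicle, at a log2 value of -2.22 ± 0.88 (SE) and an adjusted p of 0.0406 (edgeR quasi-likelihood test, Benjamini-Hochberg). That call was lost without any single one of the vehicle M0 replicates (adjusted p 0.0542, 0.112 and 0.0623), or without replicate 1 or 3 of vehicle M1 (0.126 and 0.127). In ISRIB the difference was -1.22 ± 0.82 (SE, adjusted p 0.237), and without replicate 3 of ISRIB M1 it was -3.69 (adjusted p 0.00777). With limma-voom and all libraries it was -2.26 (adjusted p 0.0418). Both genes of the pair thus had lower mean counts in M1 in each treatment, and the doubt about strand holds here too. With the opposite setting, counts under Yars would be reads from the strand of C77080 and the reverse, which was not tested.

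Among the low members, Wars (chr12:108860030-108894174, minus strand) had 0 counts in all 6 M0 libraries. Counts of Wars were 6, 1 and 2 in the vehicle M1 libraries, while ISRIB M1 gave 0, 4 and 0, so it was detected in 4 of 6 M1 libraries. Its mean in vehicle M1 was 3 counts, equal to the floor of 3 counts per library, so no fold is given. Aars, the alanyl-tRNA synthetase (chr8:111033144-111057664, plus strand), had 2, 0 and 0 counts in vehicle M0, 0 in ISRIB M0, 6, 2 and 8 in vehicle M1, then 0, 6 and 4 in ISRIB M1. It was thus detected in 1 of 6 M0 and 5 of 6 M1 libraries. Without the low-count filter, on 10978 genes, neither gene was called. Wars then had an adjusted p of 0.297 in vehicle (edgeR quasi-likelihood test, Benjamini-Hochberg), and the lowest adjusted p of the 8 low members were 0.218 (Lars, in vehicle) and 0.127 (Aars, in ISRIB).

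The other members of the multi-synthetase complex were Lars, Iars and Eprs, the enzymes for leucine, for isoleucine and for glutamate with proline. Lars had 6, 6 and 0 counts in vehicle M1, 0, 0 and 2 in ISRIB M0, and 0 in the other groups. Its vehicle M1 mean was 4 counts, against a floor of 3. Iars (chr13:49682100-49734267, plus strand) had 0, 2 and 2 counts in vehicle M1 and 0 elsewhere. Eprs (chr1:185363044-185428360, plus strand) had 2, 0 and 5 counts in vehicle M1, 1 count in an ISRIB M0 library and 0 elsewhere. All 3 genes were at 0 in every ISRIB M1 library, and in each of them at least 1 vehicle M1 library was at 0 too.

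The free enzymes Sars and Nars, for serine and asparagine, were spread over M0 and M1. Sars (chr3:108424865-108445209, minus strand) had 2, 3 and 5 counts in vehicle M0, 1, 2 and 9 in ISRIB M0, 11, 0 and 0 in vehicle M1, then 2, 4 and 4 in ISRIB M1. Nars had 2, 6 and 4 counts in vehicle M0, 0, 0 and 5 in ISRIB M0, 8, 0 and 0 in vehicle M1, then 2, 4 and 0 in ISRIB M1. The groups of both genes overlapped in every comparison. Gars (chr6:55038007-55079500, plus strand) was at 0 throughout, so that no direction was detectable. The 8 low members together had 6 to 9 counts per library in vehicle M0, 2 to 16 in ISRIB M0, 11 to 39 in vehicle M1, then 4 to 18 in ISRIB M1.

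**Figure D3:**
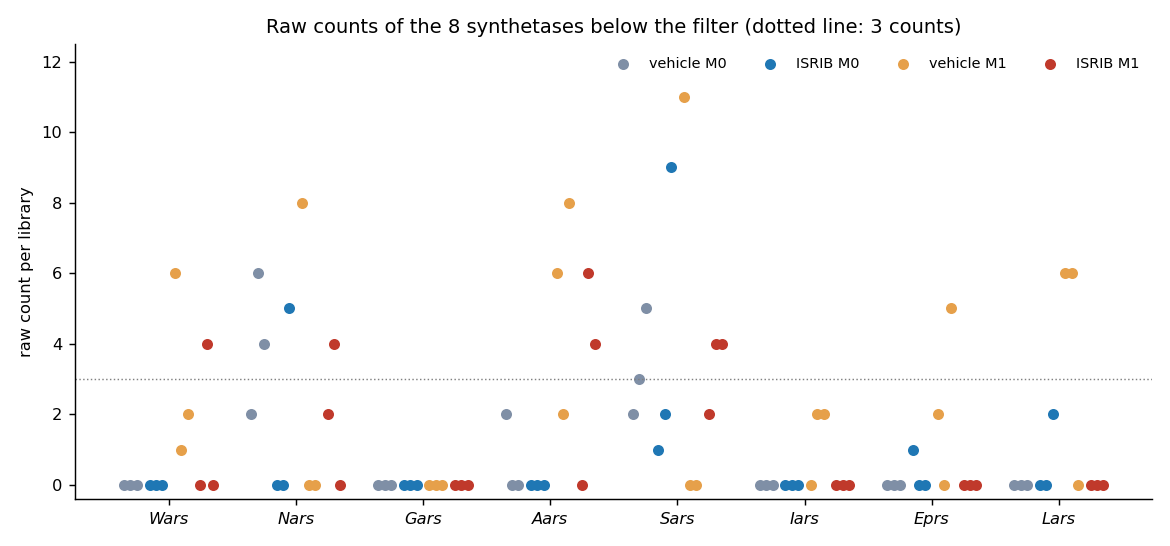
Raw counts per library (y axis) of the 8 synthetases below the filter (x axis), with 1 point per library, colours for the 4 groups and a dotted line at the floor of 3 counts. Wars was at 0 in the 6 M0 libraries and Gars in all 12, and the highest value of any of the 8 was 11 counts (Sars, vehicle M1).

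Mars and Yars, the most abundant of the 10, both overlap a gene on the opposite strand. In GENCODE M21 (GRCm38), 5795 of the 24030 symbols matched to the annotation had exons that overlap an exon of another gene on the opposite strand. These 5795 held 92.3% of the counts of the matched symbols. Qars, with a mean of 34.8 counts and no such overlap, was above Yars (6.92). A mean of at least 10 counts was reached by 22.8% of them and by 2.45% of the 18235 symbols without such an overlap. Of the 10 synthetases, Mars, Yars and Aars had an overlap, and the 7 others did not and had a mean of at most 3.58 counts. The overlap in Aars is with Gm24103, a short RNA gene of 77 bases without an entry in the count table, and Aars also shares exon sequence with Exosc6 on its own strand. Of the counts of matched symbols, genes without an overlap held 6.93% to 8.79% per library. Whether a low count of a synthetase in this table stands for scarce RNA was not tested. What produced the concentration of counts in overlapping genes was not tested.

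**Figure D4:**
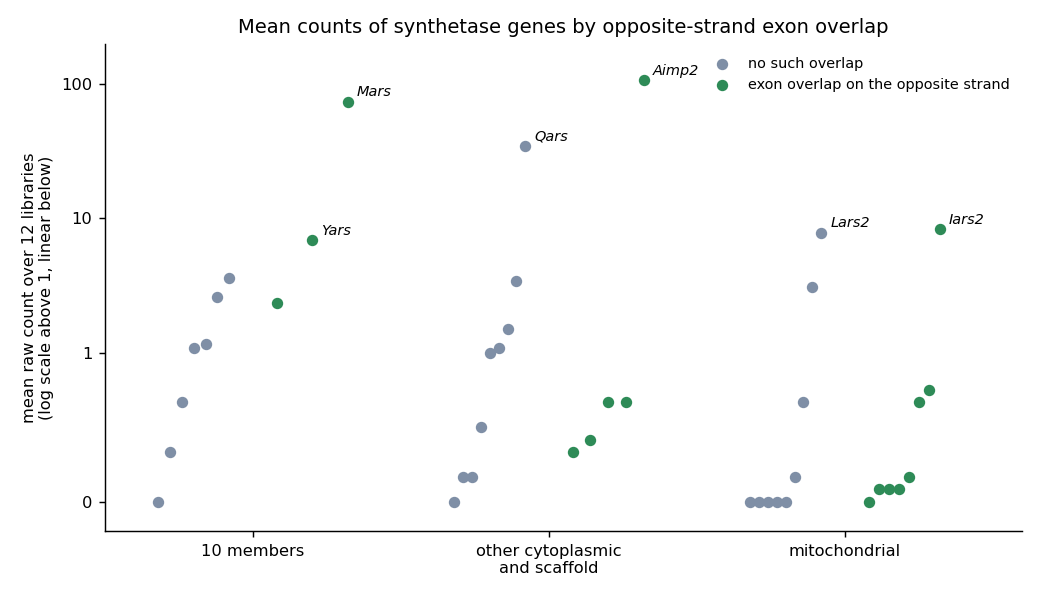
Mean raw count over 12 libraries (y axis, log scale above 1 and linear below) of the 10 members, of 14 other cytoplasmic synthetases and scaffold proteins and of 17 mitochondrial synthetases (x axis), coloured by exon overlap on the opposite strand. Mars (74.2) and Aimp2 (107.9), both with an overlap, have the highest means, and Qars (34.8) is the highest without one.

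Of the 2 tested synthetases, 0 passed the threshold for ISRIB against vehicle. Of 2356 genes, 0% were called for ISRIB against vehicle in M1, in M0, averaged over both states, or for the interaction, which asks whether the M1 against M0 difference itself differed with ISRIB. At an unadjusted p under 0.05 there were 134 genes in M1, 143 in M0, 146 in the average and 167 in the interaction (edgeR quasi-likelihood test). With 2356 genes tested, many fall under that value without any effect, so these numbers alone do not show a response to ISRIB. DESeq2 called 0, 3, 0 and 0 genes and limma-voom 0, 1, 0 and 0 in the same order.

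For Mars, the log2 difference of ISRIB against vehicle was -0.21 ± 0.27 (SE, 95% interval -0.77 to 0.35) in M1, with an adjusted p of 0.979 (edgeR quasi-likelihood test, Benjamini-Hochberg). In M0 it was -0.38 ± 0.31 (SE, 95% interval -1.01 to 0.26), with an adjusted p of 0.998. The average over both states was -0.29 ± 0.21 (SE, 95% interval -0.71 to 0.13), and the interaction was 0.17 ± 0.41 (SE, 95% interval -0.67 to 1.01, adjusted p 0.968). The intervals hold both no difference and, in M0, a fall to about the size of a log2 change of -1.01, so the data bound the effect without showing that ISRIB left Mars as it was. The interaction changed sign to -0.085 without replicate 1 of vehicle M0 and to -0.083 without replicate 1 of ISRIB M0.

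For Yars, the 3 ISRIB M1 libraries at 0 stood against 8, 0 and 2 counts in vehicle M1, with an unadjusted p of 0.0101 and an adjusted p of 0.806 (edgeR quasi-likelihood test, Benjamini-Hochberg). Its interaction had an unadjusted p of 0.0169 and an adjusted p of 0.54 by the same test. A difference in the polarization response of Yars between ISRIB and vehicle was thus not shown, although the call was made in ISRIB and not in vehicle. In M0 the log2 difference was 0.19 ± 0.91 (SE, adjusted p 1 by the same test), and it changed sign to -0.047 without replicate 1 of vehicle M0 and to -0.26 without replicate 2 of ISRIB M0. Without the low-count filter the lowest adjusted p among the 8 low members was 0.820 for ISRIB in M1 and 0.813 in M0, by the same edgeR test.

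Other genes of tRNA charging were as sparse. Of 14 other cytoplasmic synthetases and scaffold proteins, 13 had a count and 2 were tested, Qars, the glutaminyl-tRNA synthetase, and Aimp2, a scaffold of the multi-synthetase complex. Both were called lower in M1 in vehicle, as were 20.5% of all tested genes, and neither in ISRIB. That direction was opposite to Mars, which sits in the same complex. Their interactions had adjusted p of 0.792 (Aimp2) and 0.967 (Qars, edgeR quasi-likelihood test, Benjamini-Hochberg). A difference between treatments was thus not shown for either gene. Aimp2 fell from 298.3 ± 32.4 to 146.9 ± 43.5 CPM (SD, n = 3 each), a log2 fold change of -1.02 ± 0.23 (SE, adjusted p 0.000802, edgeR quasi-likelihood test, Benjamini-Hochberg). In ISRIB it was -0.54 ± 0.23 (SE, adjusted p 0.0559), and it passed the threshold there without replicate 3 of vehicle M1 (adjusted p 0.0480) or replicate 2 of ISRIB M0 (0.0309). Aimp2 was also called in ISRIB with total-count scaling (-0.83, adjusted p 0.00485), with only genes of a mean of at least 50 counts (0.04996) and with halved counts (0.0495). Aimp2 overlaps Eif2ak1, an eIF2 kinase gene on the other strand, by 487 exon bases. Qars had 30 to 57 counts in M0 and 17 to 25 in M1 libraries, with a log2 fold change of -0.93 ± 0.36 (SE, adjusted p 0.0361) in vehicle and -0.68 ± 0.36 (SE, adjusted p 0.126) in ISRIB. With total-count scaling Qars was called in ISRIB too (-0.97, adjusted p 0.0275). Its vehicle call was lost with no low-count filter (adjusted p 0.151), with the replicate number as a block (0.0524) and without any single one of 5 libraries, the 3 of vehicle M0 (adjusted p 0.0591, 0.0666 and 0.119) and replicates 2 and 3 of vehicle M1 (0.0819 and 0.140).

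Of 17 mitochondrial synthetases, which charge tRNAs inside the organelle, 11 had a count and 2 were tested. Iars2 had 15, 12 and 12 counts in vehicle M0 and 2, 2 and 1 in vehicle M1, and was called lower in vehicle (log2 fold change -2.48 ± 0.91 SE, adjusted p 0.0285, edgeR quasi-likelihood test, Benjamini-Hochberg). That call was lost with no low-count filter (adjusted p 0.0915), without replicate 1 or 3 of vehicle M0 (0.0757 and 0.0552) and without any single vehicle M1 library (0.0607, 0.0558 and 0.0971). Iars2 overlaps Rab3gap2 on the opposite strand. Lars2 had 4, 2 and 2 counts in ISRIB M0 and 18, 20 and 10 in ISRIB M1, and was called higher in ISRIB (2.81 ± 0.92 SE, adjusted p 0.0150 by the same test). That call was lost without replicate 2 or 3 of ISRIB M0 (adjusted p 0.0538 and 0.0554) or replicate 1 of ISRIB M1 (0.0529). Of all tested genes, 20.5% were called lower in vehicle and 23.9% higher in ISRIB. The interactions had adjusted p of 0.789 (Iars2) and 0.912 (Lars2) by the same test, so no difference between treatments was shown.

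Of 36 other ATF4 targets, 23 had a count and 8 were tested, too few to set their calls apart from the 44.8% of all tested genes called in each treatment. In vehicle 2 were higher, 1 was lower and 5 were not called, with a median log2 difference of 0.33 against 0.01 over all tested genes. In ISRIB 1 was higher, 1 was lower and 6 were not called, with a median of 0.65 against -0.01. Xpot, the exportin that carries tRNA out of the nucleus, was higher in both (2.70 ± 0.77 and 1.96 ± 0.67 SE, adjusted p 0.00553 and 0.0202, edgeR quasi-likelihood test, Benjamini-Hochberg). Its call in ISRIB was lost with no low-count filter (adjusted p 0.0507), without replicate 1 or 3 of ISRIB M0 (0.0634 and 0.0881) or replicate 3 of ISRIB M1 (0.0826). Atf3, a stress-induced transcription factor, was higher in vehicle (2.01 ± 0.63 SE, adjusted p 0.0109) and had 1.35 ± 0.61 (SE, adjusted p 0.0779) in ISRIB. Without replicate 3 of vehicle M0, Atf3 had an adjusted p of 0.0518 in vehicle and 0.0491 in ISRIB, and with halved counts it was called in ISRIB (0.0378). Cebpg, a C/EBP partner of ATF4, was lower in both (-3.19 ± 0.83 and -3.89 ± 0.89 SE, adjusted p 0.00273 and 0.000836). Atf4 itself had at most 8 counts in a library and Asns at most 4, while Trib3 and Chac1 were at 0.

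Most of the tested genes of the interferon gamma list, known targets of the cytokine like Wars, were called higher in M1. Of its 18 genes, 17 had a count and 12 were tested, of which 11 were called higher in M1 in vehicle and 10 in ISRIB, with 0 lower, against 24.3% and 23.9% of all tested genes called higher. Irf1 was called in neither treatment (adjusted p 0.209 and 0.239, edgeR quasi-likelihood test, Benjamini-Hochberg), and Ido1 was at 0. The median log2 difference was 4.06 in vehicle and 3.58 in ISRIB when the genes with an M0 group at 0 (6 and 7 genes) were set at their lower bounds. The genes with an M0 group at 0 passed the low-count filter through their M1 counts. Tap1, a peptide transporter of antigen presentation, rose by 8.12 ± 0.38 (SE) in vehicle and 6.16 ± 0.32 (SE) in ISRIB on the log2 scale, with adjusted p of 1.60e-15 and 1.34e-14 (edgeR quasi-likelihood test, Benjamini-Hochberg). It had 19 counts over the 6 M0 libraries together and 1821 over the 6 M1 libraries, and 5 M0 libraries had a count. The size of both rises thus rests on few M0 counts. The interaction of Tap1 had an adjusted p of 0.505 by the same test, so a difference between treatments was not shown. Cxcl9, a chemokine, was at least 39.9-fold higher in M1 in vehicle and at least 40.5-fold higher in ISRIB. Gbp2, a guanylate-binding protein, reached at least 26.4-fold in vehicle and 36.7-fold in ISRIB. Gbp7, of the same family, was at least 20.4-fold higher in vehicle and rose by 3.09 ± 0.54 (SE, log2) in ISRIB. Psmb9, an immunoproteasome subunit that overlaps Tap1 on the opposite strand by 212 bases, was called in vehicle (1.45 ± 0.51 SE, adjusted p 0.0209) and not in ISRIB (0.93 ± 0.49 SE, adjusted p 0.128). Its vehicle call was lost with total-count scaling (adjusted p 0.0676), without replicate 1 or 2 of vehicle M0 (0.0600 and 0.0985) or replicate 1 or 3 of vehicle M1 (0.0714 and 0.135), and it was called in ISRIB without replicate 2 of ISRIB M0 (0.0262). The list held 0 genes called for ISRIB against vehicle in either state.

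**Figure D5:**
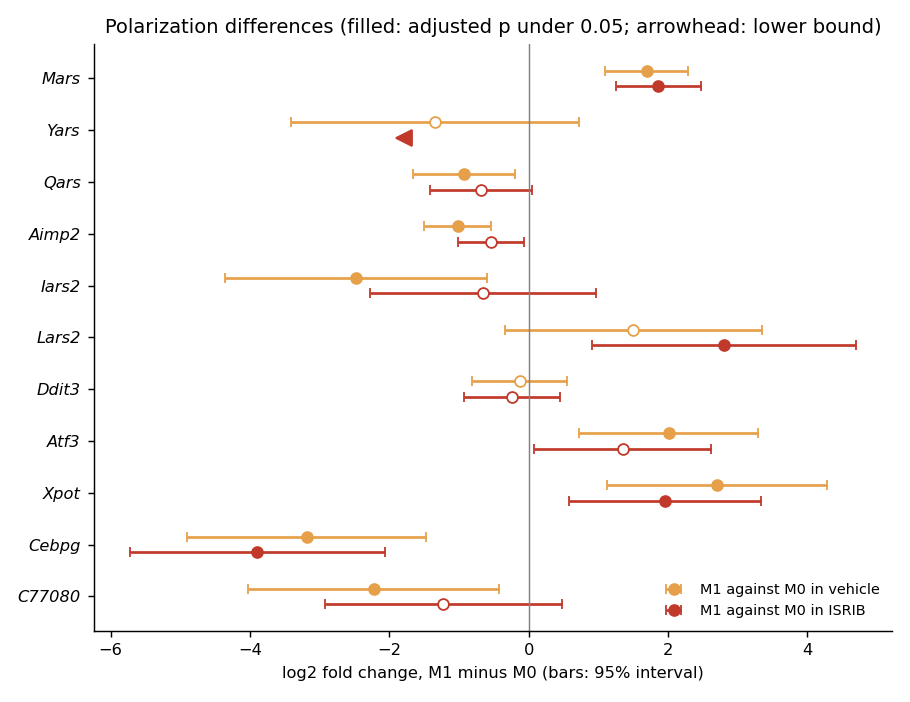
Log2 fold changes of M1 against M0 (x axis) for the named synthetase, scaffold and ATF4 target genes and C77080 (y axis), in vehicle and in ISRIB, with 95% intervals and filled points for calls. Mars (1.69 and 1.86) and Xpot (2.70 and 1.96) lie above 0 in both treatments, Cebpg (-3.19 and -3.89) below 0 in both, and the arrowhead for Yars in ISRIB marks the bound of 3.46-fold lower.

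The genes whose pattern over the 12 libraries was most like that of Mars were Dennd2d, Atxn7l1os2 and Plcxd1, with Pearson correlations of log2 CPM of 0.964, 0.964 and 0.962. These libraries share the M0 and M1 split, so the values describe likeness and carry no test. Dennd2d had 40 to 83 counts in M0 and 131 to 185 in M1 libraries. Atxn7l1os2 had 88 to 167 and 346 to 491, and Plcxd1 had 191 to 311 and 366 to 428. All 3 overlap a gene on the opposite strand, as Mars does, with 771, 193 and 1116 exon bases shared. Such overlaps were common among well-counted genes. Of the matched symbols averaging 10 counts or more, 1323 carried an overlap and 447 lacked it. The overlap thus does not set these 3 genes apart.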

How the data were processed

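Per the labels, the 12 libraries came from a strand-specific TruSeq mRNA kit and an Illumina NovaSeq run. The authors deposited whole-number counts per gene symbol and, for the same samples, log2 values. The deposited log2 values are the log2 of count divided by a library factor, plus 1. The submitters' processing notes name FastQC, HTSeq, DESeq2 and build mm10, while aligner, annotation, versions and strand setting are not given in the sources used here. The synthetases and gene lists were chosen with earlier results of these data known. Testing used edgeR 4.0.16 under R 4.3.3 (filterByExpr at min.count 10 and min.total.count 15, TMM, quasi-likelihood test, a mean per group, all 12 samples). The filter kept 2356 genes holding 97.6% of counts. A gene could pass it through the state where its counts were high, as Yars did through M0, and calls were not corrected for that. Calls used a Benjamini-Hochberg adjusted p under 0.05, and the script was tested on simulated data. For M1 against M0 in vehicle, 35 of 100 genes simulated with a 2-fold change were called. Of 100 with a 4-fold change, 75 were called, and 0 unchanged genes were. A gene not called can therefore still have changed 2-fold or more. This was a single simulation, with the spread of each gene taken from a fitted trend and fewer changed genes than were called in the data. Its filter kept 2115 genes, and a changed gene that was not kept counted as not called. The rates of the simulation need not hold for the data. Standard errors were those implied by the test statistic. All 10 synthetases were named, with opposite-strand neighbours in the table, every called gene of the other synthetase and ATF4 lists, up to 5 called interferon gamma targets by mean count, and the 3 genes most like Mars. Alternatives were DESeq2 1.42.0, limma 3.58.1 (voom, and the deposited log2 values), other scalings and filters, only the compared groups, a replicate block and leaving out each library, and, chosen after seeing the data, total-count scaling and counts halved and rounded up. Same-numbered samples were not treated as pairs, and exon overlaps came from GENCODE M21.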

Additional observations from a re-analysis of the deposited data

How the results depend on the processing

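The rise of Mars was called under all 23 alternatives in vehicle (1.39 to 1.95 on the log2 scale) and in ISRIB (1.56 to 2.11). The number of the 10 synthetases called for M1 against M0 in ISRIB was 1 rather than 2 with a mean of at least 50 counts, with halved counts and with only the compared groups, where Yars fell below the filter. In the other comparisons the number of these 10 called was the same under every alternative run. Over all genes, the minimum mean of 50 counts left 530 calls in vehicle and 523 in ISRIB. For ISRIB in M0 there were 10 calls with no filter, 3 with DESeq2, 1 with limma-voom and 0 to 6 leaving out a library. The interaction had 9 with no filter and 0 to 4 leaving out a library. Averaged ISRIB had 2 with no filter and 0 to 2 leaving out a library, and ISRIB in M1 had 0 to 1. Total-count scaling moved the median log2 difference of all genes by -0.30 in vehicle and -0.29 in ISRIB. With the replicate block the interaction had 3 calls over all genes, and the number called among the 10 synthetases did not change in any comparison, while Qars lost its vehicle call (adjusted p 0.0524). Correlations of same-numbered samples' deviations were -0.0600 to 0.113, and values this low cannot exclude pairing. Libraries with the same replicate number carry consecutive library names that span all groups. Whether they were handled as a set is not stated in the labels. Whether equal numbers mark paired samples was thus not settled.

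Differences that were not called changed sign. For C77080, ISRIB against vehicle in M1 was 0.73, but -0.37 with limma-voom and -0.23 on the deposited log2 values (-1.74 to 1.47 leaving out a library). Its interaction was 1.0, but -0.0050 with limma-voom (-1.48 to 1.73), and its averaged ISRIB difference -0.37 with limma-voom and -0.28 on the deposited log2 values (-1.0 to 0.61). Leaving out a library gave Ddit3 -0.37 to 0.047 for M1 against M0 in vehicle, -0.27 to 0.095 for ISRIB in M1, -0.15 to 0.13 in M0, -0.28 to 0.13 for the interaction and -0.15 to 0.029 averaged. It gave Yars -0.26 to 0.44 for ISRIB in M0 and the Mars interaction -0.085 to 0.44. The cause was not tested. With at most 11 counts in any library, 8 of the 10 synthetases were not tested, and why their counts were low was not tested either.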
